A study of Mus musculus with 6 samples.

Results

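The 9 genes Areg, Ereg, Btc, Has2, Ptgs2, Ptx3, Tnfaip6, Edn2 and Rgs2 belong to the programme that ovarian follicles switch on when luteinising hormone (LH) triggers ovulation. They were selected by symbol from the 18280 genes of the deposited table, and all 9 were found. The tissue was the whole ovary, from transgenic mice labelled Dennd1aTG (TG) and from wild-type mice (WT), with 3 libraries of each, from 3 animals per genotype by the series' design text. Every mouse had received pregnant mare serum gonadotropin (PMSG) 44 h earlier, which makes follicles grow through the FSH receptor and in rodents also acts on the LH receptor. The labels name no later ovulatory injection, so the genes were read in stimulated ovaries before such a trigger. The transgene's promoter, the strain and the age are not given in the sources used here. The title of the series concerns the response of granulosa cells to FSH, and the comparison asks whether these genes stood at another level in TG ovaries.

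At ovulation, LH acts on mural granulosa cells, which then release the EGF-like growth factors amphiregulin (Areg), epiregulin (Ereg) and betacellulin (Btc). These ligands act through the EGF receptor on the cumulus cells around the oocyte. Cumulus cells respond by making hyaluronan and the proteins that hold it together, so that the complex expands and is shed. LH receptor signalling runs largely through cAMP and protein kinase A, whose target CREB binds the cAMP response element, written TGACGTCA or, as its shorter form, TGACG.

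Library totals were between 17075484 and 18516171 estimated counts. Dennd1a transcripts, the check of the labels, measured 570, 582 and 588 CPM (counts scaled to library size) in TG and 44.6, 39.5 and 49.3 CPM in WT ovaries, so the 3 libraries labelled TG had the higher level. Of the markers of the ovary, 10 of 10 granulosa genes and 9 of 10 oocyte genes were above the count filter. Some libraries stood apart in markers of other or neighbouring cells. The adipocyte gene Cfd had 86.8 CPM in TG replicate 2 and between 0.383 and 9.45 CPM elsewhere. In WT replicate 3 the oviduct gene Ovgp1 had 40.9 CPM, against 0.602 to 5.99 CPM elsewhere. Other oviduct markers were not all high in that library. Krt7 was at its lowest there, 7.99 CPM, against 8.62 to 26.9 CPM elsewhere. Epcam had 5.87 CPM, against 4.88 to 13.6 CPM elsewhere, and Cdh1 5.23 CPM, against 3.5 to 8.3 CPM elsewhere. Pax8 and Wfdc2, below the count filter, were highest there, at 0.705 and 0.881 CPM. Foxj1 and Tekt1, also below it, had 0.294 and 0.117 CPM there and were highest in TG replicate 2, at 0.459 and 0.23 CPM. The muscle gene Des had 126 CPM in WT replicate 3, against 31.8 to 40.5 CPM elsewhere. The 8 surface epithelium markers summed to 79.7 CPM in TG replicate 2 and 71.3 CPM in WT replicate 3, against 125 to 146 CPM in the other libraries, and the 10 oocyte markers ranged from 118 CPM in WT replicate 2 to 235 CPM in WT replicate 3. In whole-ovary RNA, fewer cells of a type and less RNA per cell cannot be told apart.

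Promoter windows from RefSeq (assembly GRCm38.p6, the build that mm10 corresponds to) were found for 7 of the 9 genes. Ereg and Has2 had no window and were not searched. The window runs from 250 bases before the annotated start to 50 bases after it. The stretch before the start is shown for Areg, which holds the full cAMP response element, and for Rgs2, the highest of the 9 genes in these ovaries. It is also shown for Ptgs2, which was lowest together with Has2. Each stretch runs 5′ to 3′ in the direction of the gene. Capitals mark TGACG on either strand (CGTCA when it lies on the opposite one), TATAAA, and the letters TTGCGCAA that C/EBP factors can bind.
Areg, chr5:91139349-91139598, plus strand: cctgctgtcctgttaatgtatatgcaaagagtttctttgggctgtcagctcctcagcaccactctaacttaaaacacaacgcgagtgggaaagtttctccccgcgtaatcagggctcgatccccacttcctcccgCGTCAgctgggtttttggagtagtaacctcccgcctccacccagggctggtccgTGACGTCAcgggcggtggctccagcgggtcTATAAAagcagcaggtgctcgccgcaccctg
Rgs2, chr1:144004150-144004399, minus strand: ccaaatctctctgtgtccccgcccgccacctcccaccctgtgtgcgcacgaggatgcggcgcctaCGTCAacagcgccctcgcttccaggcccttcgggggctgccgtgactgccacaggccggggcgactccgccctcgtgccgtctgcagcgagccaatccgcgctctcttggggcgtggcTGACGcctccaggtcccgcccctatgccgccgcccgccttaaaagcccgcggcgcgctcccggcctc
Ptgs2, chr1:150099781-150100030, plus strand: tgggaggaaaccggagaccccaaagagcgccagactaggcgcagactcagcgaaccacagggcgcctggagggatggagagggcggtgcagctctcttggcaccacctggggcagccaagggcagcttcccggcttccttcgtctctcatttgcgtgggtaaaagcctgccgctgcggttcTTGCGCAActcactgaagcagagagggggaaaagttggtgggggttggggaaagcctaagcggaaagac

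The 8 letters TGACGTCA occurred in the windows of 1 of 7 genes, Areg, at 61 bases before the start, and in 1.79% of all 32851 windows. TGACG, which lies inside that motif and was searched on both strands, occurred in 4 of 7 windows, those of Areg, Btc, Ptgs2 and Rgs2, and in 20.8% of all windows. In Ptgs2 it began 14 bases after the start, outside the stretch shown. TATAAA, searched on both strands, was found in the Areg window and in 13.6% of all windows, and TTGCGCAA in the Ptgs2 window and in 0.183% of all. Also searched were TGANTCA (N is any base), in 1 of 7 windows and 7.81% of all, and GGGCGG, in 4 of 7 and 35.7%. CCAAT was in 2 of 7 windows and 37.4% of all, and AAGGTCA in 0 of 7 and 4.72%. A match describes the letters only.

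Before the trigger, 8 of the 9 genes were low in whole-ovary RNA and Rgs2 was abundant. A whole-ovary mean does not give the level in a given cell type. Levels between genes are compared per length, in FPKM, the count scaled by gene length and library size. Rgs2 averaged 59.8 FPKM over the 6 libraries, with a range of 48.6 to 78.3, and 91.4% of the genes in the table had a lower mean. Ereg followed at 1.41 FPKM and ranged from 1.02 to 1.66, with no overlap between the Rgs2 and Ereg ranges. The median gene of the table had 5.6 FPKM, so the 8 other genes all lay below it, as did many genes at large: 35% of the table had a mean under 1.5 FPKM. Tnfaip6 averaged 0.973 FPKM, Areg 0.877, Ptx3 0.523, Edn2 0.517 and Btc 0.513. From Ereg down to Btc, each neighbour in this order overlapped the next in its range, although Ereg was above Tnfaip6 in 6 of 6 libraries. Has2 at 0.113 FPKM and Ptgs2 at 0.11 FPKM were the lowest. They overlapped each other, and the ranges of Btc and Has2 were apart.

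**Figure D1:**
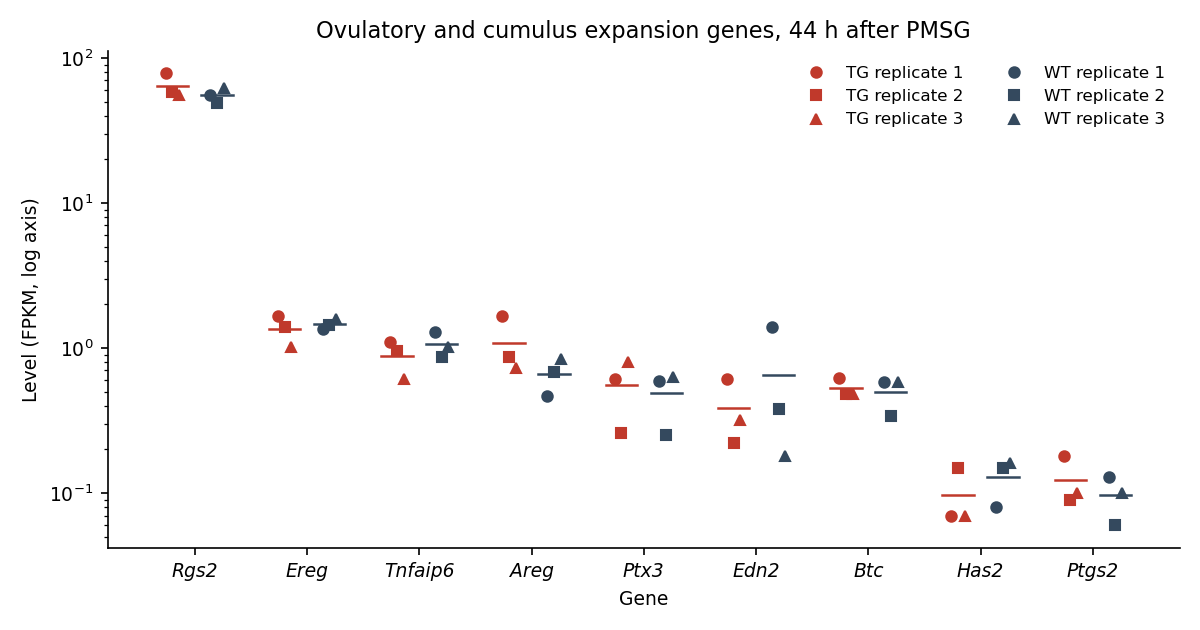
Level of each gene in each library, in FPKM on a log axis, ordered by the mean over 6 libraries; red points are TG and dark points WT, marker shape is the replicate number, and bars are group means. Rgs2 lies between 48.6 and 78.3 FPKM and the other 8 genes at 1.67 FPKM or lower, and the TG and WT points overlap for every gene.

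The EGF-like ligands were not called different between the genotypes. Areg (Entrez gene 11839, chromosome 5, 91139599 to 91148432) had 31, 16 and 13 counts in TG replicates 1 to 3, against 9, 13 and 15 counts in WT replicates 1 to 3. This is 1.72, 0.919 and 0.758 CPM in TG, against 0.485, 0.711 and 0.881 CPM in WT. TG replicate 1 was the highest and WT replicate 1 the lowest, and the groups overlapped. TG over WT, the log2 fold change of Areg stood at 0.72 with a 95% interval of -0.21 to 1.64 (SE 0.41). By edgeR the adjusted p was 0.9997. Without TG replicate 1 the log2 fold change of Areg was 0.28. Summed over libraries, the Areg counts were 60 in TG and 37 in WT. The ratio of these sums per depth was 1.66, with an interval of 1.08 to 2.57 that covers counting error only, narrower than the interval with the spread between libraries.

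Ereg (Entrez gene 13874, chromosome 5, 91074617 to 91093649) was the best counted of the 8 low genes, with 117, 98 and 69 counts in TG, against 99, 105 and 107 counts in WT. Its CPM averaged 5.38 ± 1.25 in TG and 5.79 ± 0.475 in WT (SD, n = 3 each). TG libraries held both its highest and its lowest value. The log2 fold change was -0.10 (95% interval -0.57 to 0.36), so the interval holds folds between 0.675 and 1.28. Gm19610, an antisense gene, overlaps the start of Ereg, and reads of such pairs cannot be told apart here. Btc (Entrez gene 12223, chromosome 5, 91357261 to 91402994) had 30, 23 and 22 counts in TG, against 29, 17 and 27 counts in WT. Its log2 fold change was 0.07 (95% interval -0.61 to 0.75), and the groups overlapped.

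Set beside the other ligands of the ErbB receptors, the surge ligands were not the most abundant ones at this time. Tgfa, another EGF receptor ligand, led the 8 ligands with 16.6 ± 0.355 FPKM in TG and 17.3 ± 1.59 FPKM in WT (SD, n = 3 each). Hbegf, the heparin-binding ligand, had 3.22 ± 0.305 FPKM in TG and 2.72 ± 0.158 FPKM in WT. By mean level Ereg, Areg and Btc followed in that order, above Nrg1, Egf and Epgn. From Ereg down to Egf, the range of each ligand overlapped that of the next. The receptor Egfr itself was at 10.4 ± 0.923 FPKM in TG and 10.1 ± 1.48 FPKM in WT, and Erbb2, its partner in heterodimers, at 5.62 ± 0.877 FPKM in TG and 5.77 ± 1.13 FPKM in WT.

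The genes that build the expanded cumulus matrix were counted in few reads. Has2 (Entrez gene 15117, chromosome 15, 56665627 to 56694546), the synthase that makes cumulus hyaluronan, had 5, 11 and 5 counts in TG, against 6, 11 and 11 counts in WT. TG replicate 2 and WT replicates 2 and 3 had 11 reads and the others 5 or 6. The log2 fold change of Has2, -0.38, had a 95% interval of -1.47 to 0.72 (SE 0.49), which leaves folds between 0.36 and 1.65 possible. Has2 is also overlapped by an antisense gene, Has2os. Has3 was the highest of the 3 synthases at 0.457 ± 0.0208 FPKM in TG and 0.41 ± 0.0173 FPKM in WT, against 0.0967 ± 0.0462 FPKM in TG and 0.13 ± 0.0436 FPKM in WT for Has2.

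Tnfaip6 (Entrez gene 21930, chromosome 2, 52038113 to 52056681) encodes the protein that transfers heavy chains onto hyaluronan. It had 28, 24 and 15 counts in TG, against 34, 23 and 25 counts in WT. TG replicate 3 was the lowest and WT replicate 1 the highest, and the groups overlapped. Its log2 fold change was -0.26 (95% interval -0.95 to 0.44).

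Ptx3 (Entrez gene 19288, chromosome 3, 66219887 to 66225806), the pentraxin that cross-links those chains, had 19, 8 and 24 counts in TG, against 19, 8 and 19 counts in WT. Replicate 2 of each genotype was low, and the other 4 libraries had 19 or 24 counts. The log2 fold change was 0.18 (95% interval -0.89 to 1.25). Ptx3 lies inside Veph1, a gene on the opposite strand that had 0.417 ± 0.134 CPM in TG and 0.433 ± 0.185 CPM in WT and fell below the count filter.

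Ptgs2 (Entrez gene 19225, chromosome 1, 150100031 to 150108234), the inducible cyclooxygenase whose prostaglandin E2 is needed for cumulus expansion, had 14, 7 and 7 counts in TG, against 10, 5 and 7 counts in WT. It did not pass the count filter. Fitted without that filter, it had a log2 fold change of 0.37 with a 95% interval of -0.71 to 1.45 (SE 0.49). Ptgs1, the constitutive cyclooxygenase, was far above it per length, at 2.51 ± 0.233 FPKM in TG and 3.08 ± 0.227 FPKM in WT, against 0.123 ± 0.0493 FPKM in TG and 0.0967 ± 0.0351 FPKM in WT for Ptgs2. Ptger2, the prostaglandin E2 receptor of cumulus cells, was present at 2.54 ± 0.462 FPKM in TG and 2.42 ± 0.37 FPKM in WT.

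Edn2 (Entrez gene 13615, chromosome 4, 120161206 to 120167360) encodes endothelin 2, a constricting peptide that granulosa cells make around follicle rupture. It had 14, 5 and 7 counts in TG, against 33, 9 and 4 counts in WT, and was also below the count filter. A single library, WT replicate 1, stood out at 1.78 CPM, while WT replicate 3 was the lowest of all at 0.235 CPM. Between the highest and lowest library Edn2 differed 7.57-fold, the widest spread of the 9 genes. Without the filter Edn2 had a log2 fold change of -0.77 with a 95% interval of -2.24 to 0.70 (SE 0.67), and the value turned to 0.42 without WT replicate 1. Edn1 and Edn3, the other endothelins, measured 0.947 ± 0.201 and 1.45 ± 0.496 FPKM in TG and 1.05 ± 0.395 and 1.4 ± 0.0503 FPKM in WT. Ednra, a receptor of endothelins on contractile cells, was at 20.8 ± 3.68 FPKM in TG and 19.1 ± 1.54 FPKM in WT.

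Rgs2 (Entrez gene 19735, chromosome 1, 143999338 to 144004149) speeds the shut-off of Gq-coupled signalling. It was the one gene of the 9 with deep counts: 3945, 2916 and 2701 in TG, against 2915, 2543 and 3026 in WT. In CPM it had 219, 167 and 158 in TG, against 157, 139 and 178 in WT. TG replicate 1 was the highest and WT replicate 2 the lowest, and the other 4 libraries were mixed. Its log2 fold change of 0.20 had a 95% interval of -0.11 to 0.51 (SE 0.14), a fold between 0.927 and 1.42. By edgeR the adjusted p was 0.9997. Without TG replicate 1 the log2 fold change of Rgs2 was 0.04. Among 20 RGS genes in the table, Rgs2 had the highest mean level, but its range overlapped that of Rgs10 (44.49 to 62.49 FPKM) and Rgs5 (41.05 to 59.03 FPKM).

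Across the comparison, edgeR called 0 of the 7 tested genes, and the lowest unadjusted p was 0.114, for Areg, so 0 were under 0.05. The counts were likewise 0, called and unadjusted, with DESeq2 and with limma-voom. Over all 14124 tested genes 1.05% were called at an adjusted p under 0.05 and 4.08% had an unadjusted p under 0.05. TG and WT libraries overlapped for 9 of 9 genes, while 8.25% of all tested genes had groups that did not overlap. Of the 7 log2 fold changes 4 were above 0 and their median was 0.07, against a median of 0.00 over all tested genes. In two-sided exact permutation tests of the group means, which cannot go below 0.1 with 3 libraries against 3, the p-values of the 9 genes ranged from 0.2 for Areg to 0.8 for Ereg and Btc. A p above the threshold does not show that the genotypes were alike, and the intervals above give the sizes that these libraries leave possible.

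**Figure D2:**
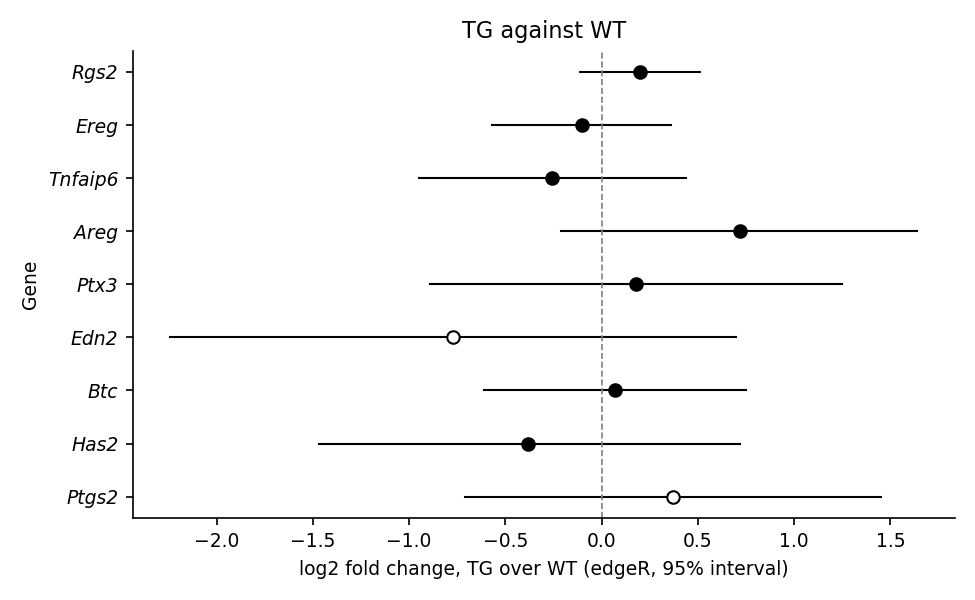
Log2 fold change of each gene, TG over WT, from edgeR (points) with 95% intervals (lines); open points are Ptgs2 and Edn2, which fell below the count filter and were fitted without it. All 9 intervals include 0, and they run from the narrow one of Rgs2 (-0.11 to 0.51) to the wide one of Edn2 (-2.24 to 0.70).

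The spread between libraries exceeded counting error for some genes and not for others. Counting error alone gives a chi-square per degree of freedom near 1. For Rgs2 it was 106 in TG and 41.6 in WT, and for Edn2 2.34 in TG and 14.5 in WT. Areg had 4.13 in TG and 1.02 in WT, and Ereg 5.08 in TG and 0.693 in WT. Ptx3 had 4.04 in TG and 2.85 in WT. For Btc, Has2, Ptgs2 and Tnfaip6 the values lay between 0.55 and 1.85, and with 3 libraries a group and so few counts such values do not separate spread between animals from counting error.

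TG replicate 1 had the highest CPM for 5 of the 9 genes (Areg, Ereg, Btc, Ptgs2 and Rgs2), and it was the highest library for 16.1% of all tested genes. WT replicate 2 was the lowest for 4 of the 9 (Btc, Ptgs2, Ptx3 and Rgs2), against 19.5% of all tested genes. Has2 ran the other way, with its lowest value in TG replicate 1. Without Rgs2, the other 8 genes together held 258, 192 and 162 counts in TG, against 239, 191 and 215 counts in WT. Their summed CPM was 11.6 ± 2.48 in TG and 12 ± 1.34 in WT (SD, n = 3 each).

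**Figure D3:**
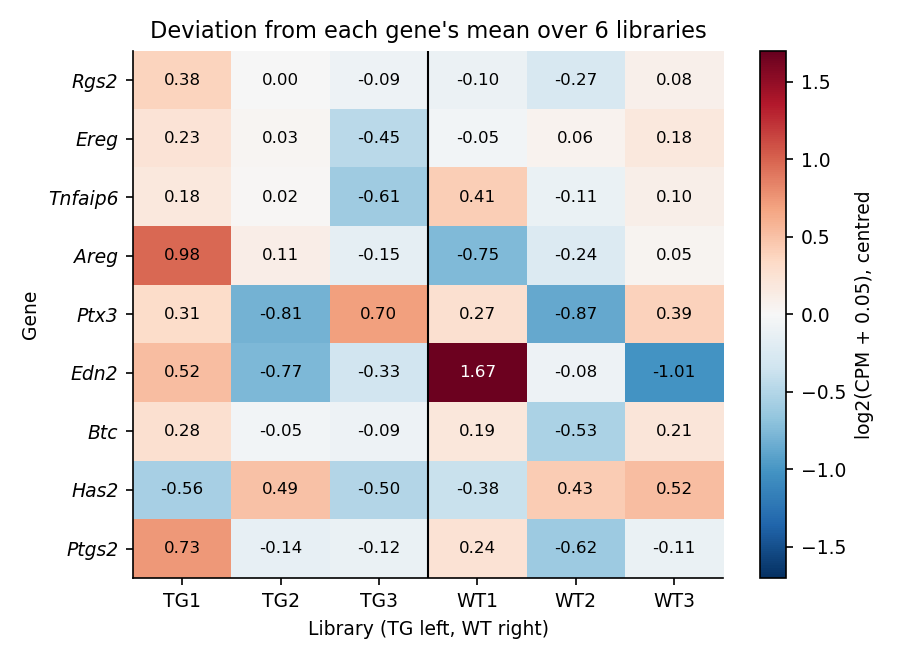
Deviation of log2(CPM + 0.05) of each gene in each library from the gene's own mean over the 6 libraries, with TG left and WT right of the line. TG1 is above the mean for 8 of the 9 genes, Has2 being the exception, and the largest deviation is that of Edn2 in WT1, 1.67.

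Star, a surge-induced gene of steroid synthesis that luteinising cells raise, did not follow this order of libraries. It measured 1372, 1921 and 1976 CPM in TG, against 1193, 3463 and 1776 CPM in WT, so its highest library was WT replicate 2, the lowest one for Rgs2, Btc, Ptgs2 and Ptx3. Lhcgr, the LH receptor that starts the response, had 1187, 1190 and 1503 CPM in TG, against 1153, 1525 and 1094 CPM in WT.

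For each of the 7 tested genes, the gene with the most similar profile was found among those with a mean of at least 2 CPM. Likeness was the root mean square difference of log2(CPM + 0.05), each gene centred on its own mean over 6 libraries. Faxc was nearest to Rgs2, at a difference of 0.0464, and Slc22a21 to Btc, at 0.04. For Areg it was Jchain, the joining chain of secreted immunoglobulins, at 0.179, with 4.83, 2.01 and 2.27 CPM in TG, against 1.56, 1.7 and 2.29 CPM in WT. Ociad2 was nearest to Tnfaip6 at 0.0847, Myo7a to Has2 at 0.163 and Cdh23 to Ptx3 at 0.177. For Has2 and Rgs2 the choice of 1 nearest gene was not sharp, since 6 and 5 genes lay within 0.02 of the smallest difference. Each match is the closest of many genes over only 6 libraries, so some near profile is always found. Whether any match goes beyond such a search was not tested.

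Genes that work with these 9 were read from lists given by pathway. In EGF receptor signalling, edgeR called 0 of 18 tested genes and 0 had an unadjusted p under 0.05, with a median log2 fold change of -0.03. The smallest p-values were those of Hbegf (0.23), Nrg1 (0.33), the sheddase Adam17 (-0.07) and the feedback inhibitor Spry4 (-0.15), given here as log2 fold changes. Hbegf had 6.94, 7.87 and 6.42 CPM in TG, against 5.6, 6.13 and 6.34 CPM in WT, without overlap. Of the 18 tested hyaluronan matrix genes 0 were called and 1, Cd44, had an unadjusted p under 0.05, and the median was -0.02. Cd44, the hyaluronan receptor, had 38.2, 41.1 and 47.6 CPM in TG, against 36.9, 28.7 and 33.4 CPM in WT. These did not overlap, and its log2 fold change of 0.36 (SE 0.12) had an adjusted p of 0.669 by edgeR. The proteoglycan Vcan had a log2 fold change of 0.20, the hyaluronidase Hyal3 -0.71 and the hyaluronan-degrading factor Cemip -0.59. Has3, at 0.14, was also higher in TG without overlap.

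Of the 20 prostaglandin genes 0 were called and 1, the thromboxane synthase Tbxas1, had an unadjusted p under 0.05, and the median was -0.04. Tbxas1 measured 3.83, 2.87 and 4.26 CPM in TG, against 4.9, 4.87 and 5.99 CPM in WT, with no overlap, and its log2 fold change of -0.52 (SE 0.21) had an adjusted p of 0.9997 by edgeR. Ptger3, a prostaglandin E2 receptor, had 0.56, Ptgs1 -0.28 and the degrading enzyme Hpgd 0.19. For Ptger3 the groups also did not overlap, with TG the higher. The endothelin list had 0 of 6 called and 0 at an unadjusted p under 0.05 (median 0.06), with Ednrb at 0.14, Ednra at 0.11, Ece1 at -0.07 and Ece2 at 0.09. The other RGS genes had 0 of 16 called and 0 at an unadjusted p under 0.05 (median -0.06), with Rgs1 at -0.64, Rgs14 at -0.53, Rgs10 at -0.18 and Rgs6 at -0.59. DESeq2 and limma-voom also called 0 genes in these 5 lists.

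Of 27 other tested surge-induced genes, some of which also stand in the lists above, edgeR, DESeq2 and limma-voom called 0. In edgeR 2 had an unadjusted p under 0.05, and the median was 0.01. These were Cd44 and Adcyap1, the gene of the peptide PACAP, which had 15.6, 22.6 and 14.9 CPM in TG, against 15, 11.7 and 9.92 CPM in WT. For Adcyap1 the log2 fold change was 0.54 (SE 0.20), and the adjusted p by edgeR was 0.906. Prkg2, a cGMP-dependent kinase, had 0.56 and the protease gene Ctsl 0.15. Unlike the 8 low genes, many of these were already abundant: 15 of 30 had a mean of at least 10 FPKM and 6 a mean under 1.5 FPKM. In the whole table a gene with a mean of 10 FPKM stood above 60.7% of the genes, and 35% had a mean under 1.5 FPKM. Pgr, the progesterone receptor needed for follicle rupture, was among those 6 at 0.433 ± 0.0802 FPKM in TG and 0.39 ± 0.122 FPKM in WT. Adamts1, a protease that cleaves versican in the cumulus matrix, was at 11.8 ± 1.43 FPKM in TG and 12.4 ± 1.63 FPKM in WT.

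Among 18 genes that act upstream of the surge response, edgeR and limma-voom called 0, and the median was -0.01. By edgeR, 1 was under 0.05 before adjustment. That gene was Nppc, the C-type natriuretic peptide precursor that keeps the oocyte in meiotic arrest until LH acts. It measured 24.3, 21.8 and 18.5 CPM in TG, against 32.9, 29.8 and 28.7 CPM in WT, without overlap. For Nppc the log2 fold change was -0.50 (SE 0.12). The adjusted p was 0.159 by edgeR and 0.0498 by DESeq2, the only call in 15 alternatives, over which it ranged up to 0.631. Nr5a1 had 0.14, Creb1 0.12 and Smad2 -0.10.

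**Figure D4:**
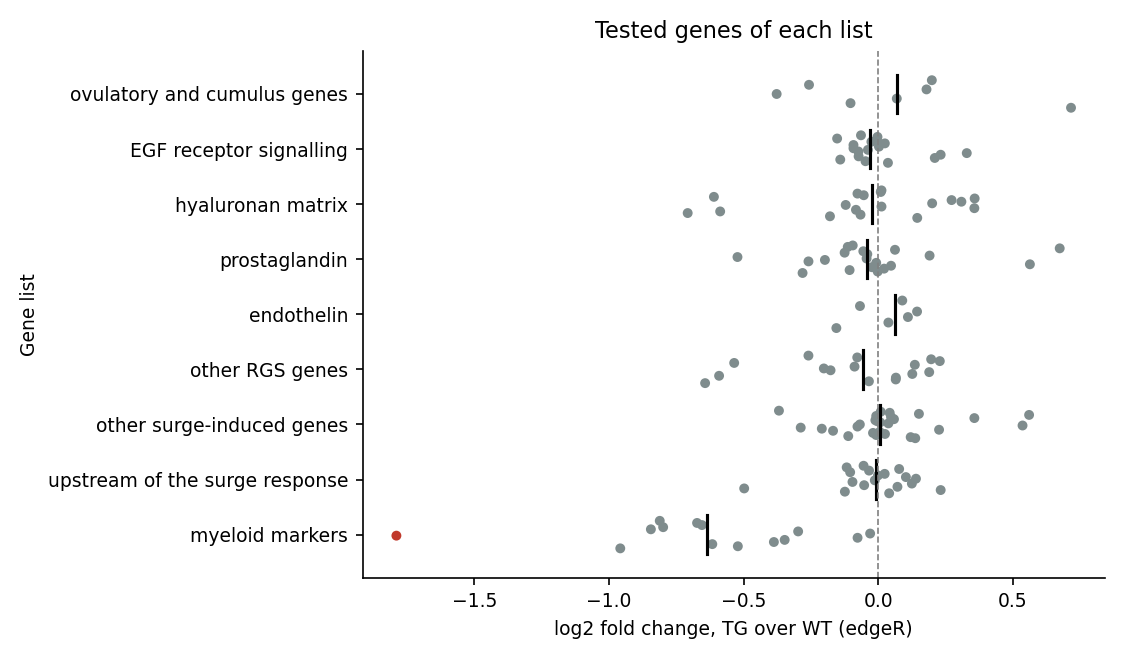
Log2 fold change, TG over WT, of the tested genes of each list (points) with the list's median (black bar); red marks an adjusted p under 0.05 in edgeR. The medians of the 8 upper lists lie between -0.06 and 0.07, and the myeloid markers have a median of -0.64 with 1 gene, Fcgr1, called.

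Leukocytes can also express Areg, Ereg, Ptgs2 and Ptx3. Of 14 tested myeloid markers edgeR called 1 lower in TG, and 9 had an unadjusted p under 0.05. All 14 log2 fold changes were below 0, with a median of -0.64, from -1.79 to -0.03. Fcgr1, a receptor for immunoglobulin G and an interferon-induced gene, was lower in TG by edgeR, with a log2 fold change of -1.79 (SE 0.28) and an adjusted p of 0.0119, and was called in 11 of 15 alternatives. With a replicate block 0 of the 14 were called, and likewise without TG replicate 1 or TG replicate 3. Ptprc had -0.96 (adjusted p = 0.0733 by edgeR), C1qa -0.80 (0.133) and Csf1r -0.52 (0.189), which did not pass, while Lyz2 had -0.08 and Mrc1 -0.03. S100a8 and S100a9, neutrophil genes below the count filter, had 0.59 and 0.44 when fitted without it. The 16 markers summed to between 330 and 355 CPM in TG and between 362 and 590 CPM in WT, and 0 of the 16 were at 0 in all libraries. Their part in the levels of the 9 genes was not tested. In the other marker lists edgeR, DESeq2 and limma-voom called 0. Of 8 tested endothelial markers all were below 0, with a median of -0.16, and 2, Egfl7 at -0.32 and Vwf at -0.58, had an unadjusted p under 0.05 by edgeR. Of 4 tested adipocyte markers 2, Plin1 at 0.49 and Fabp4 at 2.13, were under 0.05 before adjustment, with a median of 1.31. Fabp4 reached 48.1 CPM in TG replicate 2, against 3.5 to 5.81 CPM elsewhere, and its groups overlapped. Cfd, at 3.08, also peaked in that library and overlapped, so this median does not show a shift shared by all TG libraries. For Plin1 the groups did not overlap. Granulosa (10 tested, median 0.03), oocyte (9, 0.05), smooth muscle (8, -0.17), oviduct (4, -0.47), luteal (8, -0.04) and surface epithelium markers (8, -0.09) had 0 under 0.05 before adjustment.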

How the data were processed

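Per the labels' protocols, total RNA of whole ovaries was read on the BGISEQ-500 platform in 3 TG and 3 WT libraries. The genome build mm10 and the tools Bowtie2, RSEM (1.3.1) and DESeq2 (1.4.5) are listed in the submitters' processing notes, with no roles. Estimated counts per gene were deposited by the authors, per the file headers. A second set of deposited columns was taken as FPKM from its values: it does not sum to a constant, and in 180 to 201 single-transcript genes per library (3000 bases or more, 500 counts or more) count over value and length gave 94.7% to 94.9% of the summed counts. All 54 values of the 9 genes are whole counts. Strandedness and annotation are not given in the sources used here.

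The main test was the two-sided quasi-likelihood test of edgeR 4.0.16 (R 4.3.3) on rounded counts, with TMM factors of 0.9902 to 1.015. Genes were kept by filterByExpr (count 10, total 15), and p-values were adjusted by Benjamini-Hochberg over 14124 genes at a threshold of 0.05. The filter removed Ptgs2 and Edn2, which were fitted without it. CPM uses effective library sizes. A standard error is the absolute log2 fold change over the square root of F. Intervals of summed counts are 95% exact binomial intervals for counting error only. The test was checked on simulated data. Alternatives were other size factors, other filters, a replicate block, DESeq2 1.42.0, limma 3.58.1 (voom, and trend on log2(FPKM + 1) or log2(FPKM + 0.1), keeping genes that reached 1 FPKM in 3 libraries) and leaving out each library.

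The 9 genes, the lists and the tests were chosen with earlier results of these data known. In the pathway, surge, upstream and myeloid lists the 4 tested genes with the smallest p were named, and for each profile its nearest gene, except that of Ereg, which is not reported here. Other members of the ligand, receptor, synthase, endothelin and RGS families, and Star, Lhcgr, Pgr, Adamts1, Ptger2, Veph1 and the further cell type markers, were named after their values were seen.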

Additional observations from a re-analysis of the deposited data

How the results depend on the processing

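The 9 genes had 0 calls in the alternatives that fitted them, but not every alternative fitted all 9. The filter of 50 counts in 3 libraries kept 2 of them, Ereg and Rgs2. Each trend fit on FPKM kept 3, Ereg, Tnfaip6 and Rgs2. Genes that were not kept could not be called, nor could their signs turn. Signs turned only when a library was left out. Without TG replicate 1, Btc had a log2 fold change of -0.06 and Ptgs2 0.00. Without TG replicate 3, Ereg had 0.07 and Ptx3 -0.17, and without WT replicate 2, Btc had -0.14 and Ptx3 -0.14. Without WT replicate 1, Edn2 had 0.42. Leaving out 1 library at a time, the log2 fold changes ranged from 0.28 to 0.93 for Areg, -0.26 to 0.07 for Ereg, -0.14 to 0.19 for Btc, -0.86 to -0.17 for Has2, 0.00 to 0.63 for Ptgs2, -0.17 to 0.51 for Ptx3, -0.43 to -0.05 for Tnfaip6, -1.25 to 0.42 for Edn2 and 0.04 to 0.29 for Rgs2. For Ptgs2 and Edn2, the alternatives run without a count filter were chosen after seeing the data. Over all genes, 149 were called (144 lower, 5 higher in TG), and between 122 and 178 without 1 library. DESeq2 called 202, of which 191 were lower and 11 higher in TG. Of the myeloid markers, 1 was called in edgeR, 2 with no count filter, 5 in DESeq2, 0 with a replicate block and between 0 and 4 without 1 library. Of the upstream genes, DESeq2 called 1.

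The replicate numbers were not taken to pair the animals. Same-numbered libraries had correlations of their deviations from the group means of 0.228, 0.0797 and 0.0935, each the highest for its library. With the replicate number as a block, 159 genes were called, and among them were 0 of the 7 tested genes of the 9. Depth and the spread between libraries limit the result: 7 of the 9 genes had at most 34 reads in any library.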
